A study of Mus musculus with 26 samples.

Results

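Subcutaneous inguinal white fat of mice that lack both isoforms of ChREBP was set directly against the same depot of mice that lack only the ChREBPβ isoform. The arrays were chosen by their titles. They were the 7 arrays of total ChREBP KO fat and the 5 arrays of ChREBPβ KO fat, 12 of the 26 arrays of the series, each from the RNA of 1 sample. All mice were C57BL6/J males that had gone without food for 24 h before 18 h of refeeding on a regular diet with 20% glucose in the drinking water, and their age was not given in the sources used here. Total KO mice carry a null allele of Mlxipl, and ChREBPβ KO mice carry a deletion in the exon that only ChREBPβ uses, made by gene editing in embryos. Both deficiencies are present in every cell of the animal from conception and not only in fat cells. More than 1 ChREBPβ KO line was derived in this strain, and which of them supplied the arrays was not given. The KO groups come from different mouse lines, so that in the direct comparison line and genotype cannot be told apart. For this reason the 7 WT arrays of the total line and the 7 WT arrays of the ChREBPβ line were read beside the KO arrays. The WT mice had the same strain, sex, fast and refeeding.

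ChREBP is a transcription factor that senses sugar metabolites and binds DNA together with its partner Mlx. Its full-length form, ChREBPα, waits mostly in the cytosol until glucose metabolites let it enter the nucleus, and ChREBPβ, a shorter form transcribed from a promoter of its own, lacks the domain that holds the protein back. The factor is known for switching on glycolytic and fatty acid synthesis genes in liver and fat after a carbohydrate meal. The comparison thus asks what differs between fat that still holds ChREBPα and fat that holds neither form.

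Of the 25407 genes tested, each by its brightest probe, 7069 differed between the KO groups at an adjusted p of 0.05 in limma, which is 27.8% of all genes. Total KO fat was higher in 3520 of them (13.9% of genes tested) and lower in 3549 (14.0%). Most differences were small. The median size among called genes was 0.43 on the log2 scale, and 830 genes differed by at least 2-fold, 511 of them lower and 319 higher in total KO. The 7 total KO arrays did not overlap with the 5 ChREBPβ KO arrays in 3693 genes, 14.5% of those tested (6.98% with total KO higher and 7.55% with total KO lower). Over all 38832 probes, 26.2% were called between the KO groups.

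A large part of the direct comparison was also seen between WT mice. The WT groups differed in 11645 genes (45.8%) and in 45.4% of probes. Among the 7069 genes called between the KO groups, 3687 (52.2%) were also called between the WT groups in the same direction, 562 (7.95%) in the opposite direction, and 2820 (39.9%) were not called there. The genes shared in the same direction were 31.7% of those called between the WT groups. With the lymphocyte score described below as a covariate, the probes called between the WT groups fell from 17639 to 1614, and to 1249 with a muscle score added. The WT groups did not overlap in the B cell or the T cell markers behind this score. Score and line cannot be told apart there, so the fall does not show what the WT calls depend on. Given the shared calls, most genes described at length are read with another value. It is the WT difference (total WT minus ChREBPβ WT) or the difference of the KO effects. The latter is the direct difference minus the WT difference and is its own contrast in the same fit. That contrast was called in 5881 genes (23.1%) and in 22.5% of probes. The median over all genes was close to 0 in the direct comparison (0.02), between the WT groups (-0.03) and for the difference of the KO effects (0.04).

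Spots had a median intensity of 59 to 108 per array over a background of 15 to 23, with 70.2% to 76.5% of them well above background and 0 saturated. Pearson's r across probes was between 0.968 and 0.997 for any pair of the 12 KO arrays. Markers of the tissue matched its label, since the adipocyte markers were bright on every array (mean log2 intensity between 16.18 and 16.34 in total KO and between 15.82 and 16.20 in ChREBPβ KO). The arrays differed in other tissue components, whose part in the results below was not tested beyond the settings named. The 7 B cell markers averaged between 6.72 and 10.56 in total KO (median 9.15) and between 6.15 and 8.13 in ChREBPβ KO, the 9 T cell markers between 7.98 and 11.85 and between 7.78 and 9.17. In 4 of the 7 total KO arrays (replicates 2, 3, 5 and 8) the means of both lists lay above every ChREBPβ KO array. B cell markers were brighter still in the WT mice of the total line, whose B cell score was between 9.92 and 12.04 against 6.28 to 7.25 in the WT mice of the ChREBPβ line. Of the B cell markers 6 of 7 were called higher in total KO and 0 lower (median difference 2.41, background 13.9%), and of the T cell markers 8 of 9 (median 1.83). Glycam1, a mucin made by lymph node vessels, was the only 1 of 4 lymph node stroma genes to be called, by 2.35. Macrophage and matrix markers moved the other way. In total KO 7 of 9 macrophage markers and 5 of 7 fibroblast and matrix markers were lower (medians -1.16 and -0.81, background 14.0%). The 12 muscle markers had 0 calls, but their score ran from 6.19 to 11.91 in total KO and from 6.45 to 11.64 in ChREBPβ KO. In bulk tissue, fewer cells of a type and less RNA per cell cannot be told apart.

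**Figure D1:**
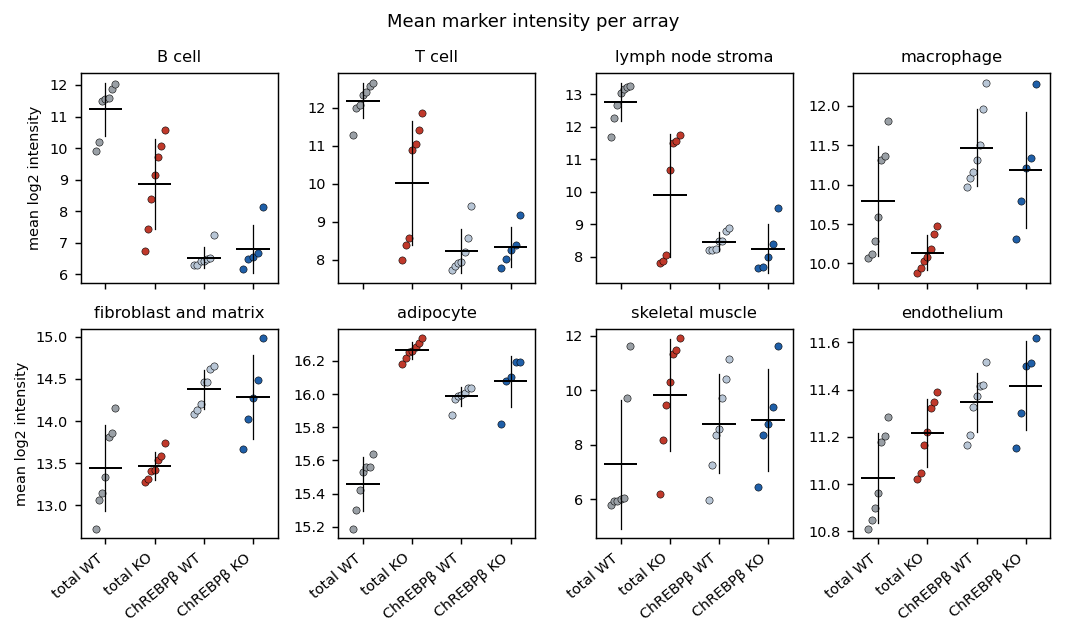
Mean log2 intensity of the marker genes of 8 cell types on every array, by group. Each point is 1 array, horizontal lines are group means and vertical lines 1 SD on either side. Above all ChREBPβ KO arrays lie 5 of the 7 total KO arrays in the B cell panel and 4 of 7 in the T cell panel, and in the adipocyte panel the WT arrays of the total line are the lowest.

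Mlxipl, the targeted gene, had 3 probes on chromosome 5 (mm9). They did not behave alike. The stretches below, read from the array annotation, show a part of each probe. Capitals mark the word of 13 bases in each probe that recurs in most other array probes, on either strand.
A_55_P2728555: atcctctaCTACACAGAGAAAccctgtctc
A_55_P2119957: gcgtatgtggattttATAAAAAAGAAAAtg
A_55_P2045158: gatgcacaCCTTTAATCCCAGtacttggga
The marked word of A_55_P2728555 recurs in 22 other probes of the 56605 on the array, that of A_55_P2045158 in 15 others and that of A_55_P2119957 in 5 others. Whether these shared words affect the signal was not tested.

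Probe A_55_P2119957, at chr5:135613705-135613764, separated KO from WT arrays completely. Its log2 intensity in total KO was 13.63 at the lowest, 13.76 at the median and 13.95 at the highest, and in ChREBPβ KO it was 14.35, 13.93, 14.05, 14.36 and 14.10. The KO groups overlapped narrowly, with the 2 highest total KO arrays just above the lowest ChREBPβ KO array, and every WT array of both lines lay at or above 15.25. Total KO was lower than ChREBPβ KO by 0.38 (difference -0.38, SE 0.13, adjusted p = 0.0372 in limma, exact two-sided permutation p = 0.00505 over 792 splits), at 77.1% of its level. Between the WT groups the difference was 0.39 in the other direction, so that the KO effects differed by -0.77 (adjusted p = 0.00347 in limma). Against its own WT the difference was -2.28 in total KO and -1.52 in ChREBPβ KO. Within the 3 wash batches that hold both KO groups the difference was -0.28, -0.41 and -0.45. The call was lost when any of 7 of the 12 KO arrays was left out (ChREBPβ KO replicates 1, 5 and 6 and total KO replicates 2, 3, 4 and 8), with differences between -0.43 and -0.33 over all 12, and under 8 further settings.

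The other probes did not separate the KO groups. Probe A_55_P2728555, at chr5:135598483-135599113, differed by 0.16 (95% interval -0.12 to 0.44, adjusted p = 0.417 in limma), and A_55_P2045158, at chr5:135614195-135614252, by 0.00 (-0.17 to 0.17, adjusted p = 0.995). Against its own WT, A_55_P2728555 differed by -0.90 in total KO and by -0.68 in ChREBPβ KO, without overlap within either line. For A_55_P2045158 these differences were -0.13 and 0.04. None of these probes was placed in an exon, since no mm9 annotation was used here, so they cannot be assigned to 1 isoform. Genes within 10 Mb of Mlxipl were called in 30.3% of 287 cases against 27.9% of 24979 elsewhere.

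Many genes of the route from sugar to fatty acids were lower in total KO, with Slc2a5, Acly, Acaca, Elovl6 and Tkt far below ChREBPβ KO. Over 11 metabolic lists, 144 of 148 genes were tested, and 37 were called lower and 39 higher, so total KO was not lower throughout. The shares over all genes were 14.0% lower and 13.9% higher. Lower calls outnumbered higher ones in hexose uptake, glycolysis, the pentose phosphate pathway, pyruvate to citrate, de novo lipogenesis and the sensing factors, and higher calls outnumbered lower ones in the other lists. The balance of several lists did not hold under other settings. With scaling to the 75th percentile, pyruvate to citrate had 4 lower and 5 higher and the sensing factors 4 and 4, and with the lymphocyte score as a covariate glycolysis had 6 and 6, the pentose phosphate pathway 2 lower and 3 higher and pyruvate to citrate 4 and 4. In de novo lipogenesis 6 of 9 genes were lower and 0 higher (median -0.47 against 0.02 over all genes), which is above the background of 14.0% lower. For all 6 the difference of the KO effects was called in the same direction, and for 0 of them was the WT difference called in that direction. The list kept 4 lower genes when the lymphocyte score was a covariate (and then 1 was higher), when the 4 total KO arrays of high lymphocyte score were left out, when the arrays were scaled to their 75th percentile, and with slide as a fixed block.

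**Figure D2:**
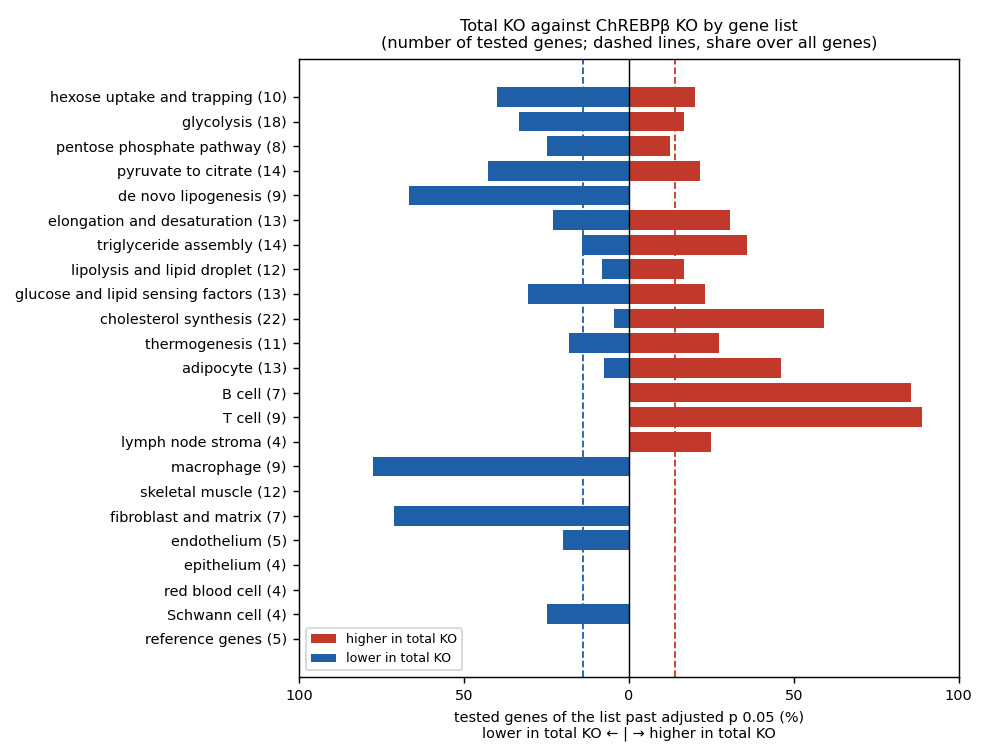
Share of the tested genes of each list (in %, number tested in brackets) called lower in total KO (bars to the left) and higher in total KO (bars to the right) against ChREBPβ KO, with dashed lines at the shares over all genes, 14.0% and 13.9%. The de novo lipogenesis list has bars to the left only (6 of 9), and the cholesterol synthesis list reaches far to the right (13 of 22).

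Acly, the enzyme that splits citrate into cytosolic acetyl-CoA, had log2 intensities of 15.70, 15.93 and 16.18 (lowest, median, highest) in total KO, and of 18.07, 17.84, 18.11, 18.00 and 17.54 in ChREBPβ KO. Every total KO array lay far below every ChREBPβ KO array. The difference was -1.95 (SE 0.10, adjusted p = 1.83e-12 in limma), leaving 25.8% of the ChREBPβ KO level, and the WT groups differed by 0.10 (18.25 ± 0.09 and 18.15 ± 0.17, SD, n = 7 each). The KO effects differed by -2.05.

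Acaca, acetyl-CoA carboxylase 1, which makes malonyl-CoA, ran from 15.05 through a median of 15.42 to 15.77 in total KO and measured 17.40, 17.14, 17.39, 17.38 and 16.88 in ChREBPβ KO. The groups were again far apart, with a difference of -1.79 (SE 0.12, adjusted p = 8.39e-11 in limma) and 28.9% of the level remaining. All 7 probes of Acaca were lower in total KO, by between 0.38 and 2.26 on the log2 scale.

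Thrsp, also called Spot 14, and Mid1ip1, an activator of acetyl-CoA carboxylase, were lower by 1.26 and 1.03 on the log2 scale (differences -1.26 and -1.03), at 41.9% and 49.0% of the ChREBPβ KO level without overlap. Me1, malic enzyme 1, differed by -0.47 with overlapping groups. Fasn, fatty acid synthase, was 18.31, 18.53 and 18.70 in total KO (lowest, median, highest) and 18.84 on each of the 5 ChREBPβ KO arrays. That value was the brightest of the whole array in all 5, which is the ceiling that quantile normalization sets. The difference was -0.31, and -0.10 (adjusted p = 0.533 in limma) with scaling to the 75th percentile, which sets no such ceiling. Slc25a1, the citrate carrier (-0.23, 95% interval -0.66 to 0.20), Acacb (-0.20, -0.59 to 0.20) and Acss2 (0.43, 0.05 to 0.81) did not pass the test. Me1 and Fasn lost their call with scaling to the 75th percentile, with slide as a fixed block, with the lymphocyte score as a covariate and without the 4 lymphocyte-rich arrays.

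**Figure D3:**
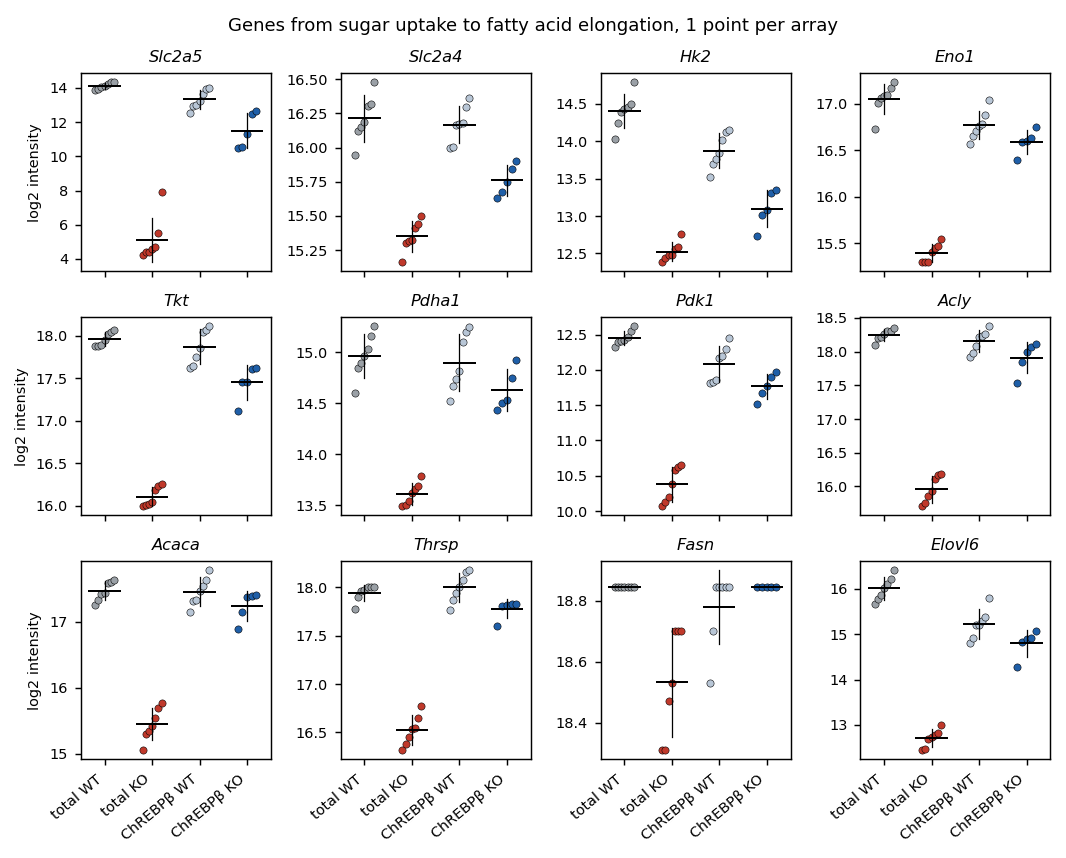
Log2 intensity of 12 genes from sugar uptake to fatty acid elongation in the 4 groups. Each point is 1 array, horizontal lines are group means and vertical lines 1 SD on either side. Total KO arrays lie below all ChREBPβ KO arrays in every panel except Hk2, and the Fasn points of ChREBPβ KO sit on 1 value, 18.84.

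Elovl6, which extends palmitate to stearate, was the elongase with the deepest difference. Its log2 intensity was 12.44, 12.74 and 13.01 in total KO (lowest, median, highest) and 14.89, 15.08, 14.91, 14.84 and 14.28 in ChREBPβ KO. No array of either group came near the other, and total KO held 23.5% of the level (difference -2.09, SE 0.15, adjusted p = 3.89e-10 in limma). Here the WT groups differed the other way by 0.78, and the KO effects differed by -2.87. The elongation and desaturation list as a whole was mixed, with 3 of 13 lower and 4 higher, against 14.0% and 13.9% over all genes. Fads3 (-1.06) and Elovl1 (-0.52) were lower, but the WT groups showed differences of -0.80 and -0.57 in the same direction. The desaturases Fads1 (0.50), Fads2 (0.42) and Scd2 (0.35) and the trans-enoyl reductase Tecr (0.44) were higher. Fads2 and Scd2 lost their calls without single arrays of either group. Scd1 did not pass (0.16, 95% interval -0.05 to 0.37).

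At sugar entry, Slc2a5 was far lower in total KO. It encodes GLUT5, the fructose transporter, and its probe lies at chr4:149517775-149517834 (mm9). In total KO its log2 intensity was 4.23, 4.60 and 7.91 (lowest, median, highest), and in ChREBPβ KO 12.45, 10.47, 12.64, 11.31 and 10.55. The dimmest ChREBPβ KO array was brighter than the brightest total KO array, total KO replicate 8, by a wide margin. The probe was well above background on 2 of the 7 total KO arrays and on all 5 of ChREBPβ KO. The difference was -6.38 (SE 0.48, adjusted p = 4.78e-10 in limma), and -8.64 when the arrays were scaled to their 75th percentile. Its size depends on the scaling of dim signals, since most total KO arrays were not well above background, and no fold is given. WT means were 14.11 ± 0.18 and 13.32 ± 0.55 (SD, n = 7 each), a difference of 0.79 that did not pass. In the remaining hexose list, Slc2a4, the insulin-responsive GLUT4, and Hk2, hexokinase 2, were lower by 0.41 and 0.57 on the log2 scale (differences -0.41 and -0.57). The call of Slc2a4 was lost with scaling to the 75th percentile and with slide as a fixed block, and a second, far dimmer probe of it differed by 0.36 without passing (adjusted p = 0.0878 in limma). Slc2a10 was lower by 1.03 (difference -1.03) with a WT difference of -1.01, so the KO effects differed by only -0.02. Slc2a1 (0.47) and Slc2a3 (0.53) were higher, and both lost the call with the lymphocyte score as a covariate.

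In glycolysis 6 of 18 genes tested were lower and 3 higher (median -0.05), against 14.0% lower and 13.9% higher over all genes, so that the share of higher genes was near the background. Eno1, enolase 1, was 15.29, 15.41 and 15.55 in total KO (lowest, median, highest) and 16.75, 16.59, 16.60, 16.63 and 16.39 in ChREBPβ KO, with a clear gap. Its difference was -1.20 (adjusted p = 1.51e-10 in limma) with a WT difference of 0.28 in the other direction. Pkm (-0.77), Ldha (-0.57), Gapdh (-0.55) and Pfkp (-0.47), which act at pyruvate, lactate, triose and fructose phosphate steps, were lower too. Dimmer Pfkp probes differed by -0.42 with a call and by -0.14, -0.02 and 0.04 without one. Tpi1 (0.47), Ldhb (0.55) and Pfkfb1 (0.69) were higher. Not all steps of glycolysis therefore moved together.

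Tkt, transketolase, which links the pentose phosphate pathway to glycolysis, was the pentose gene that stood out. It measured 16.00, 16.04 and 16.25 in total KO (lowest, median, highest) and 17.60, 17.45, 17.62, 17.45 and 17.11 in ChREBPβ KO. Total KO lay wholly below, at 39.4% of the level (difference -1.34, SE 0.09, adjusted p = 1.31e-10 in limma), and the WT groups differed by 0.09. H6pd was lower by 0.61 (difference -0.61), with a WT difference of -0.34, and Rpe was higher by 0.21. The other 5 of 8 genes, G6pdx and Pgd among them, did not pass, so that 37.5% of the list was called against 27.8% of all genes.

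At the entry of pyruvate into mitochondria 6 of 14 genes were lower and 3 higher, against 14.0% lower and 13.9% higher over all genes. Pdha1 and Pdhb, subunits of the pyruvate dehydrogenase that makes acetyl-CoA, differed by -1.02 and -0.42, and Pdha1 stood at 49.5% of its ChREBPβ KO level. A second, far dimmer Pdha1 probe differed by -0.17 without passing (adjusted p = 0.329 in limma). The kinases that switch pyruvate dehydrogenase off did not move alike. Pdk1 (-1.39, 38.2% of the level) and Pdk3 (-0.67) were lower, and Pdk2 (0.79) and Pdk4 (0.63) were higher. Dimmer Pdk1 probes differed by -1.34 and -0.41 with a call and by -0.01 and 0.22 without one. For Pdk2 and Pdk4 the WT groups differed in the same direction (0.49 and 1.15). Pdp1, the phosphatase that switches pyruvate dehydrogenase on, differed by -0.39 while the KO effects differed by 0.29 in the opposite direction, since the WT difference was -0.68. Pcx (-0.30) and Dld (0.39) completed the list of called genes.

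In triglyceride assembly 5 of 14 genes tested were higher and 2 lower, the latter close to the 14.0% of genes lower overall (13.9% were higher). Agpat9, a former name of the glycerol-3-phosphate acyltransferase Gpat3, measured 15.54, 15.77 and 16.03 in total KO (lowest, median, highest) and 14.92, 14.33, 14.64, 14.57 and 14.73 in ChREBPβ KO. All total KO arrays were brighter, by 2.20-fold in the mean (difference 1.14, SE 0.14, adjusted p = 1.10e-06 in limma). The WT groups differed by -1.15, in the opposite direction, so that the KO effects differed by 2.29. Dgat1 (0.70), Agpat6 (0.48), Agpat2 (0.33) and Agpat1 (0.31) were higher. Gpd1, which makes glycerol 3-phosphate, was lower (-0.52), as was Dgat2 (-0.18), whose direction turned to 0.11 when the arrays were scaled to their 75th percentile. Among lipolysis and droplet genes, Abhd5, the activator of the lipase ATGL, rose by 0.98 and Cidec, a droplet protein of fat cells, by 0.63, whereas Plin2 fell by 0.81 (difference -0.81). The other 9 of 12, which include the lipases, did not pass. The share of this list that was called, 25.0%, was near the 27.8% over all genes.

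Cholesterol synthesis was higher as a list, with 13 of 22 genes higher and 1 lower (median 0.50, background 13.9% higher). The WT groups differed in the same direction in 7 of these 14, and the difference of the KO effects was called the same way in 3 of them. They included Tm7sf2, a sterol reductase (1.28, 2.43-fold), and Insig1, which holds SREBP factors in the endoplasmic reticulum (0.97). For Insig1 the WT difference was 0.16. Idi1, an isomerase of the isoprenoid steps, rose by 0.66, but the WT groups differed by 0.67, and the KO effects by -0.01. Also higher were Mvd, Fdps, Fdft1, Sqle, Cyp51, Msmo1, Nsdhl and Hsd17b7, between 0.43 and 0.90, and Sc5d was lower (-0.44). With the lymphocyte score as a covariate 15 genes were higher and 0 lower, and without the 4 lymphocyte-rich arrays 13 were higher.

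Among regulators, Ppara, a nuclear receptor that drives fatty acid oxidation, showed the largest rise. It measured 11.20, 11.62 and 12.04 in total KO (lowest, median, highest) and 10.05, 9.83, 9.25, 10.06 and 10.02 in ChREBPβ KO. The groups did not overlap, and total KO was 3.28-fold higher (difference 1.71, SE 0.19, adjusted p = 4.41e-07 in limma). The WT groups differed by 0.67 in the same direction, and the KO effects by 1.05. Nr1h3, the oxysterol receptor LXRα (0.67), and Mlx, the DNA-binding partner of ChREBP (0.60), were higher as well. Txnip (-0.49), Klf10 (-1.06), Bhlhe40 (-1.21) and Bhlhe41 (-0.83) were lower. A second, far dimmer Klf10 probe differed by 0.01 without passing. In this list of 13 genes the difference of the KO effects was called lower in 1 and higher in 3, against 23.1% called over all genes. It was therefore called lower for at most 1 of these 4 genes, and for the others the fall cannot be told apart from the line. Txnip is a textbook glucose-induced gene, and Klf10 and the Bhlhe factors are transcriptional repressors. Srebf1, the lipogenic SREBP-1 (-0.17, 95% interval -0.42 to 0.08), and Pparg, the master factor of adipocytes (-0.06, -0.25 to 0.13), did not pass.

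Of 11 thermogenic genes 3 were higher and 2 lower, against 13.9% and 14.0% over all genes. Dio2, which activates thyroid hormone, differed by 2.85 with a WT difference of 1.73, and Cox8b, a respiratory chain subunit of brown fat, by 1.91 with a WT difference of 1.12. For neither did the difference of the KO effects pass (adjusted p = 0.25 and 0.0665 in limma). Cpt1b, the muscle-type carnitine palmitoyltransferase, was higher by 0.96, yet the KO effects differed by -1.51, since the WT groups differed by 2.47. Ucp1, the uncoupling protein, differed by 1.52 between the KO groups without passing (95% interval -0.17 to 3.21) while the WT groups differed by 6.84 (15.46 ± 1.43 and 8.61 ± 2.01, SD, n = 7 each). The potassium channel Kcnk3 (-1.37) and Prdm16 (-0.44), a factor of brown and beige fat, were lower. Adipoq, the fat cell hormone adiponectin, did not pass (0.24). Lep, leptin, was lower by 0.78 (difference -0.78) with the same WT difference of -0.78, and Adrb3, Cebpa, Lpl, Car3 and Cfd were higher by between 0.14 and 0.83.

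Across all genes, 1264 (4.98%) were called between the KO groups, did not overlap in any array and had a difference of the KO effects called in the same direction. They were 793 higher (3.12%) and 471 lower (1.85%) in total KO, and the 12 largest falls and 12 largest rises with a known symbol are described here, 10 of the falls by name. The rule used the direct contrast, so the sizes below are a description. The rule also required a call between the KO groups. All 24 genes kept that call in every alternative in which they were tested, but the refits drew on these same arrays. The sign of these genes within a wash batch could not change, since the rule left no overlap between the KO arrays. With the lymphocyte score as a covariate, 10 of the 12 falls and 11 of the 12 rises still had a difference of the KO effects called the same way, and with slide as a fixed block 5 of the 12 falls and 3 of the 12 rises did.

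**Figure D4:**
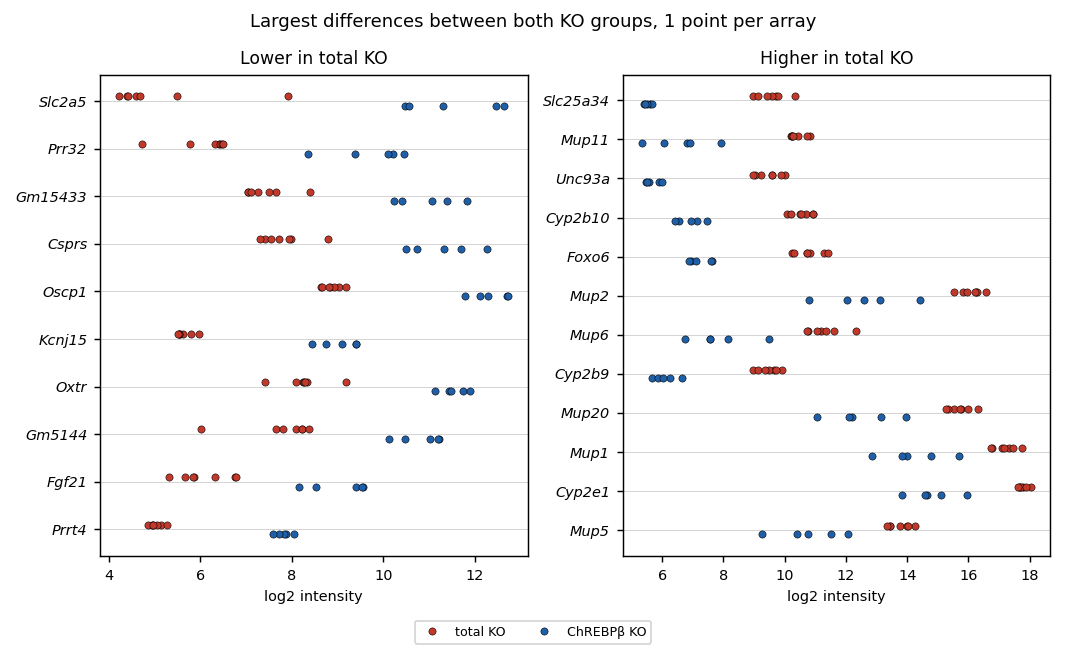
Log2 intensity on each KO array of 10 of the 12 largest falls (left) and the 12 largest rises (right). Each point is 1 array, red for total KO and blue for ChREBPβ KO. The groups do not overlap for any gene, as the choice of genes required, and Slc2a5 spans the widest range.

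Slc2a5, described above, led the falls. Fgf21, a hormone of fasting and sugar metabolism, was 5.32, 5.85 and 6.78 in total KO (lowest, median, highest) and 9.40, 8.16, 9.55, 9.54 and 8.52 in ChREBPβ KO. Total KO arrays were all dimmer, at 12.9% of the level (difference -2.96, SE 0.31, limma adjusted p = 1.42e-07), and the WT means of 9.50 and 8.99 lay near ChREBPβ KO.

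Oxtr, the oxytocin receptor, was 7.40, 8.27 and 9.18 in total KO and 11.13, 11.43, 11.48, 11.73 and 11.90 in ChREBPβ KO, 10.3% of the level remaining (difference -3.28, limma adjusted p = 2.83e-09). Oscp1, a gene named for a link to organic solute carriers, ran from 8.63 through 8.84 to 9.18 against 12.70, 12.12, 12.72, 12.28 and 11.77, at 9.13% (difference -3.45, limma adjusted p = 2.13e-12). In both the gap between the groups exceeded the spread within either. The WT difference did not pass for Oscp1 (-0.36) or Oxtr (0.54). The WT groups also differed in the same direction, and were called, for Kcnj15, an inward rectifier potassium channel (-3.38, WT -0.92), Prr32 (-3.61, WT -1.59), Gm15433 (-3.55, WT -1.36), Csprs (-3.49, WT -1.39), Gm5144 (-3.04, WT -1.28) and Prrt4 (-2.79, WT -1.14). The probes of Gm15433 and Csprs share a run of 46 of their 60 bases, so their values are uncertain as separate genes.

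Among the rises, Slc25a34, a member of the mitochondrial carrier family, was 8.97, 9.58 and 10.35 in total KO (lowest, median, highest) and 5.41, 5.60, 5.65, 5.50 and 5.42 in ChREBPβ KO. The ChREBPβ KO arrays lay close together and far below, a 16.5-fold difference (4.04, SE 0.23, limma adjusted p = 7.09e-12), with a WT difference of 0.97. A second Slc25a34 probe of nearly the same brightness differed by only 0.05 (adjusted p = 0.752 in limma), so the probes of this gene disagree. Unc93a was 8.949, 9.579 and 9.999 against 5.883, 5.572, 5.471, 5.502 and 6.003 (difference 3.78, WT -0.89), and a second, dimmer probe of it did not pass (0.00). Foxo6, a forkhead transcription factor, was 10.24, 10.74 and 11.41 against 7.62, 6.93, 7.61, 7.11 and 6.89 (difference 3.57, WT -0.74). For both Unc93a and Foxo6 the WT groups differed in the opposite direction.

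Cytochrome P450 and major urinary protein genes made up 9 of the 12 rises. Cyp2e1, a cytochrome P450 that oxidises ethanol and ketones, was 17.60, 17.72 and 18.04 in total KO and 14.63, 15.95, 13.82, 14.58 and 15.10 in ChREBPβ KO. All total KO arrays were brighter and less spread out (difference 2.95, limma adjusted p = 1.05e-06), and the WT means were 14.95 and 14.99. Cyp2b10 (3.64) and Cyp2b9 (3.37), drug-metabolising P450 genes, and the major urinary protein genes Mup11 (3.82), Mup2 (3.499), Mup6 (3.38), Mup20 (3.21), Mup1 (2.95) and Mup5 (2.95), which code for pheromone carriers, were the rest. Second probes of Mup6 and Mup20 differed by 0.47 each and did not pass. The Mup genes are closely related copies in 1 cluster on chromosome 4, so their values as single genes are uncertain. The probes used share runs of 5 to 7 of their 60 bases (21 for Mup6 with Mup20). That does not show how many copies each probe reads. The probes of Mup11 and Mup2 lie close together, at chr4:60149947-60150006 and chr4:60149741-60149800 (mm9). Counts of Mup genes here are therefore counts of gene names. Of the 24 genes 10 lie on chromosome 4, 6 of them Mup genes and the others Slc2a5, Oscp1, Slc25a34 and Foxo6. By the same rule, 6.62% of the genes tested on chromosome 4 passed, against 4.98% overall.

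**Figure D5:**
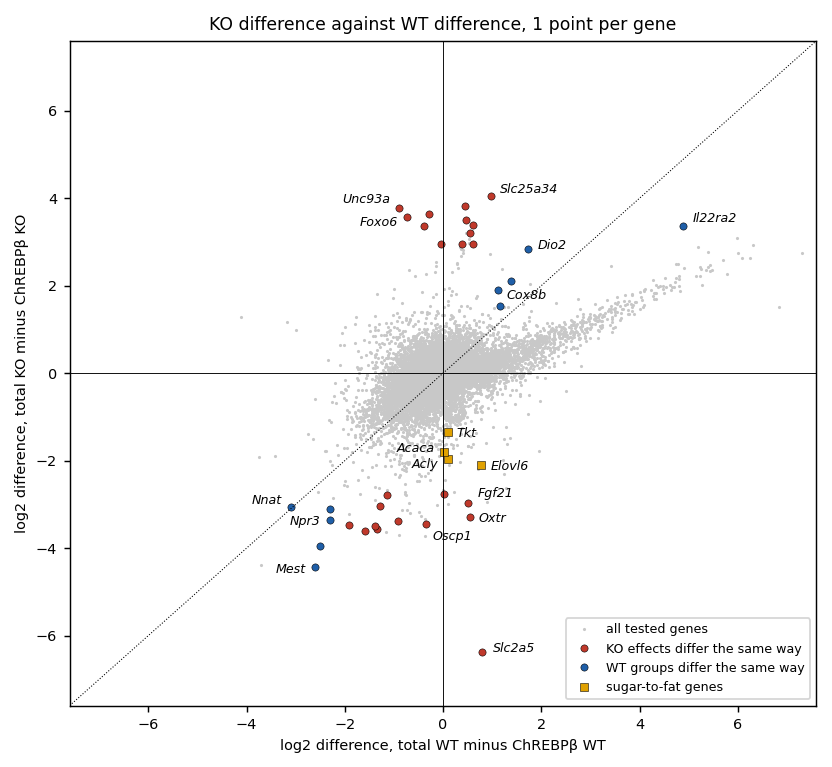
Difference between the WT groups (x axis, log2) against the difference between the KO groups (y axis, log2), 1 point per tested gene. Red points are the 24 genes of the largest falls and rises, blue points genes whose WT groups differ the same way, and yellow squares genes of the sugar-to-fat lists. Nnat lies on the dotted diagonal of equal differences, and Acly, Acaca and Tkt lie below 0 with a WT difference between 0.01 and 0.10.

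A second group of 1623 genes (6.39% of those tested, with 1104 or 4.35% lower and 519 or 2.04% higher) was called and not overlapping between the KO groups, with the WT difference called in the same direction and the difference of the KO effects not called. The 5 largest falls and rises are named. Mest, an imprinted gene of growing fat tissue, was 6.75, 7.08 and 8.08 in total KO (lowest, median, highest) and 11.18, 11.55, 9.82, 13.02 and 12.93 in ChREBPβ KO. Its difference was -4.44 with a WT difference of -2.62, and all 3 probes were lower. Nnat, another imprinted gene, differed by -3.07 between the KO groups and by -3.09 between the WT groups, so that the KO effects differed by 0.03. Npr3, the natriuretic peptide clearance receptor (-3.35, WT -2.31), Slc5a7, the choline transporter (-3.10), and 1700047G03Rik (-3.94) were the others. The probes of Npr3 (chr15:11769666-11769725) and 1700047G03Rik (chr15:11899592-11899651) lie on either side of that of Gm5144 (chr15:11837073-11837132, mm9), named among the falls above. Il22ra2, a decoy receptor of interleukin 22, led the rises (3.37, WT 4.89), before Dio2, Pank1 (2.11), Cox8b and BC049987 (1.55).

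Promoter windows of 250 bases before to 50 bases after each transcript start were read from RefSeq (GRCm38.p6) and searched for the E-box word CACGTG, which is its own reverse complement and is the word around which carbohydrate response elements are built. The word occurred in 8.09% of 27025 genes, and in 10.3% of the 13590 of them that were tested here. Of the 27 genes called lower in the hexose, glycolysis, pentose, pyruvate, lipogenesis and elongation lists, 24 had a window and 2 of them held the word (8.33%), Ldha and Pcx. Of the 12 largest falls 8 had a window and 2 held it (25.0%), and of the 12 largest rises 8 had a window and 0 held it. A pattern for the carbohydrate response element, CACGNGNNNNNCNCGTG, was searched on both strands and does not require the E-box word. It was found in 14 genes of all (0.0518%), and in 0 of these 3 sets. At so low a share the 0 cannot tell these sets from other genes. Elements that differ from this string were not searched. Windows of Acly, Acaca, Elovl6 and Slc2a5 did not hold the word. The windows of both large falls that do are shown, with the word in capitals, Fgf21 on the minus strand at chr7:45615441-45615740 and Oxtr on the minus strand at chr6:112489776-112490075.
Fgf21: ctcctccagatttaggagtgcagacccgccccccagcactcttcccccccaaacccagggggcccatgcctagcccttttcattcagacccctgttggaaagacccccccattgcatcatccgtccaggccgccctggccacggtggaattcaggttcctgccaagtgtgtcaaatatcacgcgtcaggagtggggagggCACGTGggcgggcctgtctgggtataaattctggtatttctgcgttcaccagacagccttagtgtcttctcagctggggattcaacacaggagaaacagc
Oxtr: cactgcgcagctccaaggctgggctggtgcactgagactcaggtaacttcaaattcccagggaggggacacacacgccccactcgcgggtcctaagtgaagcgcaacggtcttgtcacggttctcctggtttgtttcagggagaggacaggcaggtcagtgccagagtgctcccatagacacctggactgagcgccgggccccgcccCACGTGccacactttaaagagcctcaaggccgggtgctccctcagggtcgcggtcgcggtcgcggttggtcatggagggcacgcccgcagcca
The word starts 50 bases before the transcript start in Fgf21 and 43 bases before it in Oxtr. A match is a description of the letters and was not tested as a binding site.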

How the data were processed

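Gene expression had been measured on 1-colour 8x60K mouse arrays, 1 array per sample, in 26 samples of subcutaneous fat, of which the 12 KO arrays are compared here. The authors labelled RNA with Cy3, scanned the arrays and extracted spots with Agilent Feature Extraction 10.10.1.1, and the deposited scanner files hold these intensity values on a linear scale. The authors also deposited a log2 value table, quantile normalized, which served as an alternative. Here the log2 median spot intensity was taken without background subtraction, as in the study. Probes were kept if well above background on at least 21 of 26 arrays or on 75% of 1 group (38832 probes). The median of replicate spots came before quantile normalization, the order that gave the deposited values, although the methods text names the opposite order. Outlier spots, 97 values, were set to missing.

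A linear model with 4 group means over all 26 arrays (22 residual degrees of freedom) was fitted with limma 3.58.1 in R 4.3.3, so that all groups share 1 estimate of the spread. P-values were adjusted by Benjamini-Hochberg over all probes and called at 0.05, and all adjusted p-values are from limma. They measure the spread between these samples. A gene was represented by its brightest probe, and gene names are those of the scanner files. A score is the mean log2 intensity of a marker list on an array. Probe positions are mm9, from the files. The number of arrays limits the precision. The script was tested on simulated data.

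The genes named were Mlxipl, the called members of the metabolic lists, the 12 largest falls and rises among called genes without overlap whose difference of the KO effects was called the same way, and the 5 largest falls and rises among those whose WT difference was called instead. Members, lists and tests were chosen with earlier results of these data known. Alternatives covered values, scaling, background, filters, samples in the fit, wash batch, slide, replicate number, array weights, lymphocyte and muscle scores, probe choice and single arrays. Both scan days held whole wash batches, so the wash batch term covers them. Groups were taken from the labels. Some genes on the lists are not reported here by name.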

Additional observations from a re-analysis of the deposited data

Results flagged for a closer look

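Of 114 sets of values examined, 9 held 1 array far from the rest of its group, where chance gives about 1 in 20. In total KO, replicate 8 was high for Slc2a5 (7.91, next 5.50), and replicate 7 for Dio2 (11.81). Replicate 2 was low for Prr32 (4.72), Gm5144 (6.003), Npr3 (9.44) and Slc5a7 (4.27). In ChREBPβ KO, replicate 6 was low for Thrsp (17.60), replicate 4 was low for Ppara (9.25), and replicate 1 was high for the B cell score (8.13). Slc2a5, Dio2, Prr32, Gm5144, Npr3 and Slc5a7 were chosen for KO groups without overlap, so none of these arrays could close their gap. Thrsp and Ppara were not chosen by that rule, and their KO groups did not overlap either.

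The effects of the KO against its own WT differed between the lines in 8751 probes, by the interaction term in limma. For Pdp1 and Cpt1b that difference ran against the direct one. Pdp1 was lower in total KO than in ChREBPβ KO (-0.39) while the KO effects differed by 0.29, and Cpt1b was higher (0.96) while they differed by -1.51. The WT difference was -0.68 for Pdp1 and 2.47 for Cpt1b.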

How the results depend on the processing

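Of the 107 named genes, 92 or more kept their call between the KO groups under every setting that tested them all, except with slide as a fixed block (63), where slide 2 alone holds both KO groups. Counts of probes that moved by more than 1.5 times were, against 10169 between the KO groups, 1636 with slide fixed, 6604 when only probes well above background on all 26 arrays were tested (21296 probes), and 6774 without the 4 total KO arrays of high lymphocyte score, an alternative chosen after seeing the data. For the difference of the KO effects (8751) they were 616 with slide fixed, 5444 with that filter, 2359 with the lymphocyte score as covariate and 2112 with the muscle score added. For the WT difference (17639) they were 10240 with the filter, 1614 with the lymphocyte score and 1249 with both scores. Called genes of the metabolic lists fell from 76 to 34 with slide fixed. The rule that gave 1264 genes whose KO effects differed the same way gave 162 with slide fixed, 680 with the lymphocyte score and 685 with both scores. Leaving out 1 KO array at a time gave 8071 to 9740 probes between the KO groups, 7163 to 9988 for the difference of the KO effects and 17433 to 17874 for the WT difference. It gave 69 to 74 list genes, and 1122 to 1285 genes by the rule that gave 1264. For that rule the lack of overlap was always taken from the main values of all KO arrays, so only the calls could change. Some of these settings held fewer probes or arrays, and the cause of the shifts was not tested.

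Mlxipl probe A_55_P2119957 (-0.38) kept its direction but not its call at -0.29 with scaling to the 75th percentile, -0.34 with quantile normalization before the median, -0.41 with slide fixed, -0.23 with the lymphocyte score, -0.36 with the muscle score, -0.21 with both, and -0.29 without the 4 arrays, at adjusted p between 0.0521 and 0.361 in limma. Leave-one-out values ran from -0.431 to -0.325. Dgat2 reversed to 0.11 with scaling to the 75th percentile (adjusted p = 0.492). That scaling moved the share of higher calls from 50.4% to 56.9%.

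Samples of the same replicate number did not deviate together (correlations -0.0445, -0.302, -0.454 and 0.156 for numbers 1, 2, 4 and 5), and no array correlated best with its own number. With the replicate number as a block, 8296 probes were called between the KO groups, 8032 for the difference of the KO effects and 16600 between the WT groups, and the Mlxipl difference of -0.39 lost its call (adjusted p = 0.0516).

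Calls lost without single arrays, among the genes reported here, were, for total KO, Rpe, Pdk4, Scd2, Fads2 and Hsd17b7 (replicate 1 or 4), Slc2a3, Pcx, Scd2 and Fads2 (2), Slc2a3, Pcx, Fads2 and Dgat2 (3), Slc2a3, Pcx and Dgat2 (5), Rpe, Pdk4, Scd2 and Fads2 (7), and Slc2a3, Pdk4, Pcx and Dgat2 (8). For ChREBPβ KO they were Pdk4, Pcx, Scd2 and Dgat2 (1), Slc2a1, Slc2a3, Rpe, Pcx, Fads2, Agpat2 and Cpt1b (2), Slc2a3, Rpe, Pdk4, Pcx, Scd2, Fads2, Dgat2 and Hsd17b7 (4), Slc2a3, Rpe, Pdk4, Dgat2 and Hsd17b7 (5), and Rpe, Pdk4, Scd2, Fads2, Agpat2 and Cpt1b (6). With the lymphocyte score as covariate, Slc2a1, Slc2a3, Pdhb, Pcx, Me1, Fasn, Agpat2, Dgat2, Sc5d and Prdm16 lost theirs. Without the 4 lymphocyte-rich arrays the same 10 and Pdk4, Fads1, Fads2, Agpat1 and Bhlhe41 did. With scaling to the 75th percentile Slc2a3, Slc2a4, Rpe, Pdhb, Pcx, Me1, Fasn, Fads2 and Sc5d did. Of 58 named genes with several probes, 0 had a called probe of opposite sign. That count leaves out probes without a call. Such dimmer probes differed by -0.17 for Pdha1, -0.13 for Tkt, 0.01 for Klf10, -0.01 and 0.22 for Pdk1, and -0.14, -0.02 and 0.04 for Pfkp. Other named genes had such probes too.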
